A study of Homo sapiens with 3 samples.

Results

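The nuclear genes of the respiratory chain were followed in RNA from HGC-27 cells, a human line established from a gastric cancer of undifferentiated type. The members are the rows whose symbol names a subunit of complexes I to V (the NDUF, SDH, UQCR, CYC1, COX and ATP5 symbols), leaving out symbols that end in P and digits, the usual form for pseudogenes. The rule used names only and took 85 of the 50868 genes in the deposited table. They split into 37 genes of complex I, 4 of complex II, 9 of complex III, 16 of complex IV and 19 of complex V. Each of 3 cultures at passage 6 received 1 transfection for 48 h, with siRNA against IRF3 (IRF3 siRNA), against YAP (YAP siRNA) or a control siRNA, and gave 1 library each. IRF3 is a transcription factor that switches on interferon genes when viral nucleic acid is sensed, and YAP is the transcriptional coactivator restrained by the Hippo kinases. All groups share the line, the passage and a transfection, and no untransfected culture was analysed here.

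The respiratory chain sits in the inner mitochondrial membrane. Complexes I and II feed electrons from NADH and succinate into coenzyme Q, complex III passes them on to cytochrome c, complex IV gives them to oxygen, and complex V uses the proton gradient built on the way to make ATP. Most subunits are encoded in the nucleus, made in the cytosol and imported, and are assembled with a small set of proteins encoded by mitochondrial DNA, whereas complex II is wholly nuclear. Promoters of many nuclear subunit genes are known for sites of NRF1, of the ETS factor GABP and of YY1.

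With 1 library per group there was no replicate, and no difference below has a test. Library totals ran from 13949401 to 14941556 counts, and the libraries held 10854 to 11498 genes at 1 FPKM or more (fragments per kilobase of gene, scaled to the library total). Levels of YAP1 were 5.89, 3.58 and 2.23 FPKM with control, IRF3 and YAP siRNA, and those of IRF3 were 3.55, 2.90 and 3.86 FPKM. The count ratio of each target in its own knockdown was 0.380 for YAP1 (95% counting interval 0.334 to 0.431) and 0.818 for IRF3 (0.732 to 0.915). YAP1 was also lower in the IRF3 siRNA library, at a count ratio of 0.608 (0.546 to 0.677). Under its own siRNA IRF3 kept 597 counts, and its gene overlaps BCL2L12 on chromosome 19. Its log2 ratio of FPKM plus 1 was -0.22, and the lower quartile of genes with a mean of at least 1 FPKM was -0.25. The drop of IRF3 was thus no larger than that of many other genes, and the word knockdown below names only the siRNA given. Of the markers expected of a gastric epithelial cell, 1 of 10 epithelial genes (MUC1) and 0 of 8 gastric mucosa genes had a mean of at least 1 FPKM, with TFF1, TFF2, MUC6 and GKN1 at 0 counts in the 3 libraries. Summed over each list, epithelial markers stood at 2.50 to 2.78 FPKM and gastric mucosa markers at 0.0396 to 0.102 FPKM. Mesenchymal markers summed to 631 to 669 FPKM, with 4 of 6 at 1 FPKM or more, and fibroblast markers to 273 to 317 FPKM, with 6 of 6. Most of each sum was 1 gene, VIM at 511, 451 and 469 FPKM and COL1A1 at 266, 229 and 222 FPKM. The mesenchymal markers CDH2 (0.0560, 0.0732 and 0.130 FPKM) and ZEB1 (0.491, 0.144 and 0.285 FPKM) were below 1 FPKM. The label of a gastric cancer cell therefore rests here on the name of the line. The summed levels of leukocyte markers were 1.12 to 1.86 FPKM those of endothelial markers 0.196 to 0.225 FPKM, those of erythroid markers 7.36 to 8.79 FPKM (2 of 4 kept) and those of heart and skeletal muscle markers 6.80 to 7.23 FPKM (MB kept of 5, MYH7 at 0 counts). In a bulk library, fewer cells expressing a gene and less RNA per cell cannot be told apart.

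Promoter windows of the members were searched for 3 motifs, which the rule did not use. Of the 85 members, 66 matched an entry of the RefSeq promoter table (build GRCh38.p14), by their current or older symbol, with 79 windows of 300 bases in all (250 before to 50 after an annotated start). Searched on both strands with overlaps allowed, the NRF1 motif (GCGCA, 1 base of any kind, then GCGC) was in 15 of the 79 windows (19.0%) and in 5.78% of the 35116 windows in the table. The ETS motif CCGGAAG, which GABP binds, was in 21 member windows (26.6%) and in 10.3% of all. The YY1 motif AAGATGGC was in 13 member windows (16.5%) and in 2.89% of all. At least 1 of the 3 motifs was in 39 member windows (49.4%) and in 17% of all windows. Windows of 1 gene can overlap, as those of ATP5J do, and a match can then count in both. The windows of the whole table were not limited to genes detected here. A match is a run of letters, not a bound site.

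Printed here are the windows of 2 members that stood furthest apart with IRF3 siRNA, COX4I1 (chr16:85799445-85799744, plus strand) and NDUFA13 (chr19:19515975-19516274, plus strand), and of the 2 catalytic subunits of complex II, SDHA (chr5:218070-218369, plus strand) and SDHB (chr1:17053983-17054282, minus strand), whose ratios differed in sign with YAP siRNA on the deposited scale, though not under TMM scaling (a trimmed mean over genes). Capitals mark the motif matches, in either orientation, and positions count from 1 at the 5′ end of the window.
COX4I1: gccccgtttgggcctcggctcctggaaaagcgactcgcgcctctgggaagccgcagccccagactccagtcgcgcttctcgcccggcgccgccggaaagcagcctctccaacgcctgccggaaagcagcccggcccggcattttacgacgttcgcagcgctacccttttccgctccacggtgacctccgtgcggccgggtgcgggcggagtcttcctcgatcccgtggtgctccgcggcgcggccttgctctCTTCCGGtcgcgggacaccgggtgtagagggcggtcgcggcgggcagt
NDUFA13: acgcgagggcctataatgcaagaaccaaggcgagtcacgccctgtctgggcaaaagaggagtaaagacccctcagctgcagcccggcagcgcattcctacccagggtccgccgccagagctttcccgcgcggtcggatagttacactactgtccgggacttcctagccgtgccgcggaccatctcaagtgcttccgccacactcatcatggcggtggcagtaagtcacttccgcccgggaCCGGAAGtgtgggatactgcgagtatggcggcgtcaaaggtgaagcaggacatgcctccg
SDHA: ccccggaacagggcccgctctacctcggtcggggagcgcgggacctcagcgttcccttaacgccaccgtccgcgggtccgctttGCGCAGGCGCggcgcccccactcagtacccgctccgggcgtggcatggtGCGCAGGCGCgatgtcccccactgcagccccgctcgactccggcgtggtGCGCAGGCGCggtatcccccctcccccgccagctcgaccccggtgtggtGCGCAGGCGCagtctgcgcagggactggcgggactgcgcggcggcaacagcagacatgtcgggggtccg
SDHB: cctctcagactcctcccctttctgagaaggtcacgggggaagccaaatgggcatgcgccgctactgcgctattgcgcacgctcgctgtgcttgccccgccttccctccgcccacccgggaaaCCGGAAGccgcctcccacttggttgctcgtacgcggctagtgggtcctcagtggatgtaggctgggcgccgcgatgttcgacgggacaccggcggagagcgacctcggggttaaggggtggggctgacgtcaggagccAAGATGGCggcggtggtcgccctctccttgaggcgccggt
COX4I1 and NDUFA13 both hold a single ETS match close to the start site, at position 253 on the reverse strand and at position 241 on the forward strand. SDHA has 4 NRF1 matches at positions 85, 134, 183 and 232, whereas SDHB has none and holds 1 ETS match at 123 and 1 YY1 match at 261. The window of COX4I1 also holds the start of EMC8, a gene on the opposite strand that ends at 85799608 in the deposited table. Over the 64 members with a window and a mean of at least 1 FPKM, the median log2 ratio with IRF3 siRNA was 0.31 for the 12 with a YY1 match and 0.24 for the 52 without, and with YAP siRNA 0.28 and 0.18. For the ETS motif (20 with, 44 without) the medians were 0.25 and 0.23 with IRF3 siRNA and 0.30 and 0.19 with YAP siRNA. For the NRF1 motif (15 with, 49 without) they were 0.20 and 0.25 with IRF3 siRNA and 0.19 and 0.22 with YAP siRNA. These medians have no test.

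Of the 85 members, 78 had a mean of at least 1 FPKM over the 3 libraries, as had 11103 of all genes. The 7 below it are ATP5J2LP and ATP5L2, copies of subunit genes with 0 counts in every library; the tissue isoforms COX4I2, COX6A2, COX6B2 and COX7A1; and ATP5S, which is not a subunit of the enzyme. COX4I2, which replaces COX4I1 mainly in lung, had 5, 8 and 7 counts with control, IRF3 and YAP siRNA. The heart and muscle isoforms COX6A2 and COX7A1 had 1, 0 and 0 and 5, 2 and 4 counts, and the testis isoform COX6B2 had 45, 40 and 38. A count of 0 allows up to 3 counts, and no fold is given for COX6A2. The member just under the threshold was ATP5S, at 0.921, 0.767 and 0.906 FPKM, and the one just above it was NDUFA5, at 1.23, 1.37 and 1.43 FPKM. All 12 kept genes of complex IV are therefore the forms found in most tissues, counting NDUFA4, now placed in complex IV, and COX7A2L, which takes part in joining complexes III and IV.

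The members were among the more abundant genes. Their median mean level was 30.8 FPKM against 4.64 FPKM for all kept genes, and 42 of the 78 were in the top decile, which starts at 29.97 FPKM. They were also shorter, with a median of 2545 bases of annotated exon (overlaps counted once) against 4133, and had a median GC content of 47.9% against 50.8%. Chromosome 19 carries 13 of the 85 members, the most of any chromosome, though the share of all genes on it is not given here. Levels of different genes are compared below as counts per kilobase of that exon length, scaled likewise (union RPKM), since the deposited FPKM divides by a longer length for genes with many annotated transcripts. In the control library the union RPKM of kept members ran from 1.91 for NDUFA5 to 707 for ATP5B, the catalytic beta subunit of ATP synthase. COX8A followed at 517 union RPKM, then NDUFS5 at 428, NDUFB7 at 324, COX6B1 at 267 and NDUFB9 at 239. The median union RPKM by complex in the control library was 34.3 for complex I, 23.1 for complex II, 83.1 for complex III, 88.1 for complex IV and 51.6 for complex V. Complex II thus had the lowest median, and all 4 of its genes were between 9.97 and 33.4 union RPKM.

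**Figure D1:**
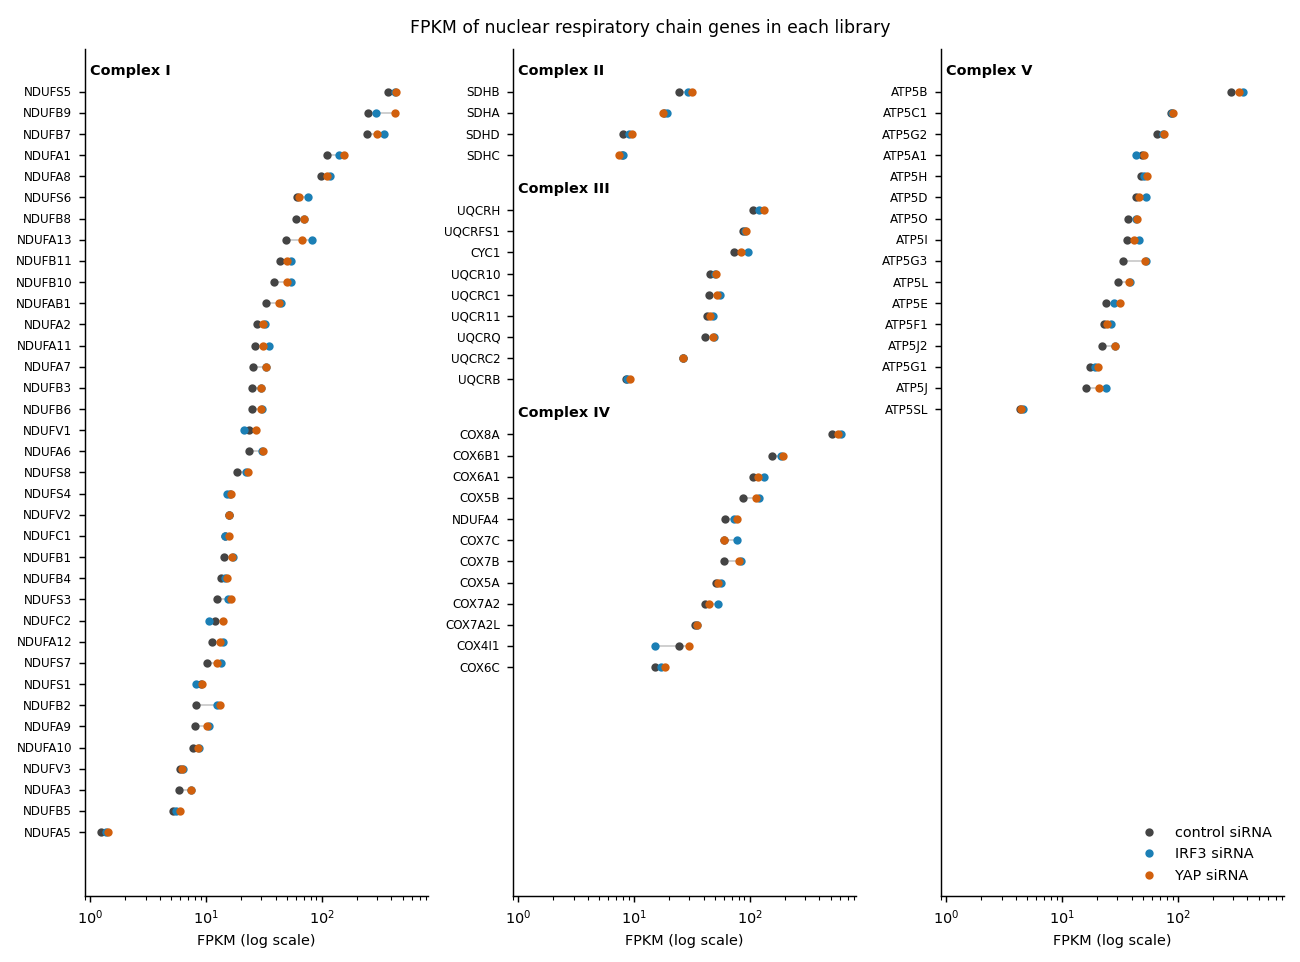
Level of the kept members, apart from 1 that is not reported here, in the 3 libraries, as deposited FPKM on a log axis, grouped by complex and ordered by the control library; points are single libraries and the grey line joins the lowest and highest. In the control library members span from 1.23 FPKM (NDUFA5) to 517 FPKM (COX8A), and the 3 points of a gene lie close together beside that span, with COX4I1, NDUFB9, NDUFA13 and ATP5G3 among the widest.

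Most subunit genes were slightly higher with either knockdown than in the control library. Members took 1.45% of all counts in the control library, 1.70% with IRF3 siRNA and 1.75% with YAP siRNA, a ratio of 1.17 (1.17 to 1.18) and of 1.2 (1.2 to 1.21) for the summed counts. NDUFB9 alone held 13680, 17211 and 24403 counts, and without it the summed ratios were 1.17 in both comparisons. Both comparisons use the same control library, so a deviation of that library enters both. Every interval given for a ratio of counts covers counting error only, since 1 library per group holds no measure of differences between cultures. Each interval also takes counts as independent, which PCR copies are not, so it can be too narrow.

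**Figure D2:**
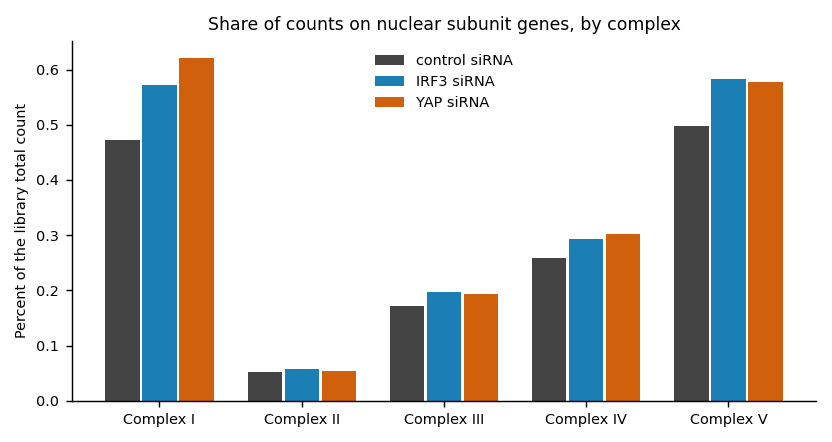
Percent of each library's total count on the members of each complex; bars start at 0 and each is 1 library, without replicates. All 5 complexes are highest in 1 of the 2 knockdown libraries. Complex I shows the widest step, from 0.472% in the control library to 0.572% with IRF3 siRNA and 0.621% with YAP siRNA. Without NDUFB9 its shares would be 0.374%, 0.457% and 0.451%, beside 0.498%, 0.584% and 0.577% for complex V.

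With IRF3 siRNA, 72 of the 78 kept members had a log2 ratio above 0 on log2(FPKM + 1), against 46.1% of all kept genes, and their median was 0.24 against -0.03. No member reached 2-fold in either direction, where 0.387% of all genes were 2-fold higher and 0.612% 2-fold lower. Past 1.5-fold were NDUFA13 and ATP5G3 above (background 1.59%) and COX4I1 below (background 5.88%). The counting interval of the ratio lay above 1 for 60 members (background 24.3%) and below 1 for 5 (background 32.6%). Intervals narrow as counts rise, and the members were more abundant than most genes. Here and in the comparisons below, the background of the intervals is therefore not matched for level. The 6 members below 0 were COX4I1, ATP5A1, NDUFC2, NDUFV1, NDUFS1 and NDUFS4. Scaled by TMM, which moved the median of all genes to 0.06, 73 members and 57% of all genes were above 0.

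With YAP siRNA, 76 of the 78 were above 0, against 46.5% of all genes, with a median of 0.21 against -0.02. Again no member was 2-fold higher (background 0.351%) or 2-fold lower (background 0.468%). NDUFB9, ATP5G3 and NDUFB2 were past 1.5-fold above (background 1.59%), and none was past 1.5-fold below (background 4.64%). The counting interval was above 1 for 62 members (background 22.2%) and below 1 for 0 (background 30.2%). The 2 members below 0, SDHA at -0.02 and SDHC at -0.07, turned to 0.07 and 0.01 when scaled by TMM, and all 78 were then above 0, as were 56.8% of all genes.

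Set directly against each other, the knockdown libraries showed no common direction. With IRF3 siRNA over YAP siRNA, 42 members were above 0 and 36 below (background above 0, 48.2%), and the median was 0.01 against -0.01 for all genes. None was 2-fold higher (background 0.297%) or lower (background 0.315%), and only COX4I1 was past 1.5-fold, below (background 1.28% lower and 1.18% higher). The counting interval lay above 1 for 22 members (background 16%) and below 1 for 15 (background 15.6%). The highest and lowest direct log2 ratios were 0.26 for NDUFA13 and -0.56 for NDUFB9 in complex I, 0.12 for SDHA and -0.10 for SDHB in complex II, and 0.20 for CYC1 and -0.13 for UQCRH in complex III. They were 0.36 for COX7C and -0.95 for COX4I1 in complex IV, and 0.22 for ATP5D and -0.24 for ATP5A1 in complex V. The summed counts gave a ratio of 0.974 (0.969 to 0.980), which was 1.01 (1 to 1.01) without NDUFB9. By complex it was 0.922 for complex I (1.01 without NDUFB9), 1.04 for II, 1.02 for III, 0.970 for IV (1.05 without COX4I1) and 1.01 for V.

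**Figure D3:**
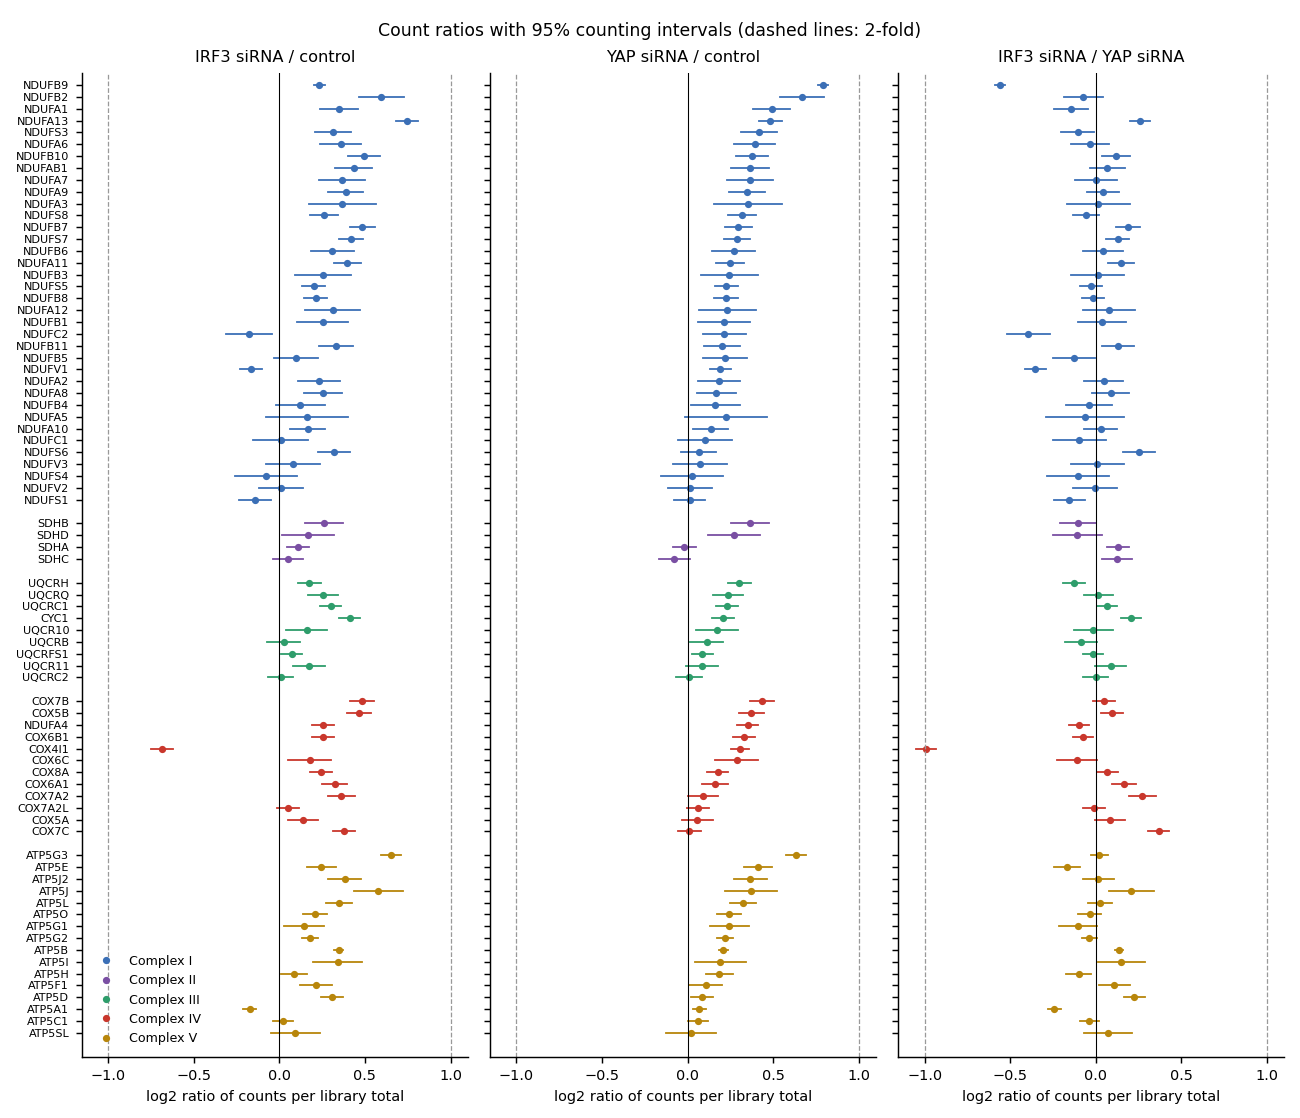
Log2 ratio of counts per library total for the same members in the 3 comparisons, coloured by complex; points are single ratios, lines are 95% counting intervals and dashed lines mark 2-fold. Points lie mostly right of 0 in the first and second panels and on both sides of 0 in the third, where COX4I1 lies close to the 2-fold line at a ratio of 0.503 and NDUFB9 follows at 0.679.

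Complex I, the NADH dehydrogenase, had 33 of 37 genes above 0 with IRF3 siRNA and 37 with YAP siRNA, with medians of 0.25 and 0.23. Its summed counts were 1.21 times (1.2 to 1.22) and 1.32 times (1.30 to 1.33) those of the control, and the second value was 1.21 without NDUFB9. The 7 nuclear core genes encode the peripheral arm that takes up electrons from NADH and carries them along iron-sulfur clusters. With IRF3 siRNA 5 of them were above 0 and 2 below, and their summed counts were 1.13 times (1.11 to 1.16) the control, beside 1.19 times (1.17 to 1.22) with YAP siRNA. NDUFV1, which holds the NADH site, was at 23.7, 21.2 and 27.1 FPKM with control, IRF3 and YAP siRNA, lowest with IRF3 siRNA. NDUFS1, the largest subunit of that arm, was at 9.11, 8.26 and 9.19 FPKM. For NDUFV1 the log2 ratio was -0.16 with IRF3 siRNA and 0.18 with YAP siRNA. Its direct count ratio of 0.782 (0.749 to 0.816) was the lowest of the core genes. NDUFS1 was at -0.13 and 0.01. It shares exon sequence with EEF1B2, a far more abundant gene, and adding the overlapping genes turned the first value to 0.20. These had 10201, 13146 and 12413 counts against 1964, 1906 and 2043 for NDUFS1. That sum therefore mostly reads the partners and cannot give the ratio of NDUFS1 itself.

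Accessory subunits surround the core. NDUFA13, also known as GRIM-19, was at 48.7, 81.6 and 68.1 FPKM (3024, 5421 and 4358 counts). Its count ratio of 1.67 (1.60 to 1.75) with IRF3 siRNA was the highest of all members, and that with YAP siRNA was 1.40 (1.33 to 1.46). The log2 ratios of 0.73 and 0.47 were 0.48 and 0.28 once the trend in level, exon length and GC content over all genes was taken out. NDUFC2, a membrane subunit, was at 12.0, 10.6 and 13.9 FPKM, with log2 ratios of -0.16 and 0.20. The readthrough gene NDUFC2-KCTD14, which shares its exons, had 306, 560 and 257 counts, high only with IRF3 siRNA. Summed with its overlapping genes, NDUFC2 had log2 ratios of 0.11 and 0.10. How reads were divided between these genes was not tested. NDUFS5, the accessory gene of highest FPKM in complex I, was at 373, 428 and 436 FPKM and log2 ratios of 0.20 and 0.23. Over the 19 accessory genes outside the NDUFB series, the median was 0.29 in the IRF3 siRNA library and 0.22 in the YAP siRNA library.

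The NDUFB genes encode subunits of the membrane arm, and all 11 were above 0 in both comparisons with control. NDUFB9 (chr8:124539103-124568510) was at 249, 293 and 431 FPKM, high with YAP siRNA alone. Its count ratio was 1.17 (1.15 to 1.2) with IRF3 siRNA and 1.73 (1.69 to 1.77) with YAP siRNA. Between the knockdowns it was 0.679 (0.666 to 0.692). The overlapping genes TATDN1 and MTSS1 together had 3492, 3400 and 3287 counts, and with these added the log2 ratio with YAP siRNA was 0.64 in place of 0.79. NDUFB2 was at 8.23, 12.4 and 13.1 FPKM, low in the control library, with log2 ratios of 0.54 and 0.61. With ADCK2, BRAF and NDUFB2-AS1 added, which share exon sequence with it, these were 0.28 and 0.31. The 3 partners together had 920, 973 and 914 counts against 770, 1246 and 1262 for NDUFB2. NDUFB7 at 246, 345 and 302 FPKM and NDUFB10 at 38.4, 54.1 and 49.8 FPKM were highest with IRF3 siRNA, at log2 ratios of 0.48 each. The summed NDUFB counts were 1.48 times (1.46 to 1.5) the control with YAP siRNA, and 1.22 times (1.19 to 1.25) without NDUFB9.

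Complex II, the succinate dehydrogenase that also serves the citric acid cycle, differed least from the control, with medians of 0.13 and 0.11 and summed count ratios of 1.09 (1.06 to 1.12) and 1.04 (1.01 to 1.08). SDHA, the flavoprotein that oxidises succinate, was at 18.0, 19.4 and 17.8 FPKM. SDHB, the iron-sulfur subunit, was at 24.6, 29.5 and 31.7 FPKM, and was the member of complex II with the highest ratio in both comparisons, 0.25 and 0.35. Of the membrane anchors, SDHC was at 7.83, 8.09 and 7.42 FPKM and SDHD at 7.99, 8.97 and 9.66 FPKM. Count ratios with YAP siRNA were 0.986 (0.941 to 1.03) for SDHA and 0.948 (0.890 to 1.01) for SDHC, both with intervals that include 1 and beside 1.29 (1.19 to 1.39) for SDHB and 1.21 (1.09 to 1.34) for SDHD. The catalytic pair and the anchor pair thus each held 1 gene on either side of 1 on this scale, whereas TMM scaling put all 4 above the control.

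Complex III, the cytochrome bc1 complex, had all 9 genes above 0 against the control, with medians of 0.17 and 0.17 and summed ratios of 1.14 (1.12 to 1.16) and 1.12 (1.10 to 1.14). CYC1, the cytochrome c1 that hands electrons to cytochrome c, was at 72.5, 96.3 and 83.6 FPKM, with the highest log2 ratio of the complex with IRF3 siRNA, 0.40, and 0.20 with YAP siRNA. UQCRH, the hinge subunit beside it, was the most abundant by FPKM at 107, 121 and 132, and led with YAP siRNA at 0.30 beside 0.17 with IRF3 siRNA. Its copy UQCRHL had 830, 985 and 1019 counts, against 3163, 3824 and 4023 for UQCRH. UQCRC2, a core protein, was at 26.5, 26.7 and 26.7 FPKM, with count ratios of 1.01 (0.955 to 1.06) in both comparisons, while the other core protein UQCRC1 was at 44.7, 55 and 52.5 FPKM. UQCRFS1, the Rieske iron-sulfur protein, was at 87.4, 91.8 and 92.7 FPKM.

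Complex IV, cytochrome c oxidase, held the member that stood furthest from the rest. COX4I1 (chr16:85798633-85807044), the regulatory subunit that binds ATP, was at 24.3, 15.1 and 30.0 FPKM (5034, 3354 and 6420 counts), low with IRF3 siRNA and high with YAP siRNA. Its count ratio was 0.622 (0.595 to 0.650) with IRF3 siRNA, 1.24 (1.19 to 1.28) with YAP siRNA and 0.503 (0.482 to 0.525) between the knockdowns. The log2 ratios of -0.65, 0.30 and -0.95 kept their sign under every alternative run. The first was smallest in size, -0.47, when counts of EMC8, the overlapping gene on the opposite strand, were added, which had 935, 1196 and 1243 counts. The lung isoform COX4I2 stayed at 5 to 8 counts. The summed counts of complex IV were 1.14 times (1.12 to 1.15) the control with IRF3 siRNA and 1.22 times (1.2 to 1.24) without COX4I1. With YAP siRNA they were 1.17 times (1.16 to 1.19) the control.

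The other 11 kept genes of complex IV were above 0 in both comparisons. COX7B was at 59.7, 83.3 and 80.6 FPKM and had the highest log2 ratios of the complex, 0.47 and 0.43. COX5B, which sits on the matrix side, was at 87.6, 121 and 113 FPKM, at 0.46 and 0.37. COX7C was at 59.8, 77.7 and 60.3 FPKM, high with IRF3 siRNA alone, at 0.37 and 0.01, and its direct ratio of 0.36 was the highest of any member. COX7A2 followed the same order, at 41.3, 53.2 and 44.0 FPKM. COX8A, a short membrane subunit and the gene of highest FPKM in the complex, was at 517, 611 and 583 FPKM. Its log2 ratios of 0.24 and 0.17 turned to -0.05 and -0.08 once the trend in level, exon length and GC content was taken out. NDUFA4 was at 60.6, 72.3 and 77.3 FPKM.

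Complex V, the ATP synthase, had 15 of 16 kept genes above 0 with IRF3 siRNA and 16 with YAP siRNA, with medians of 0.22 and 0.21 and summed ratios of 1.17 (1.16 to 1.18) and 1.16 (1.15 to 1.17). In the catalytic head, alpha subunits (ATP5A1) alternate with as many beta subunits (ATP5B). ATP5B was at 290, 368 and 335 FPKM and ATP5A1 at 49.0, 43.4 and 51.4 FPKM. The count ratio with IRF3 siRNA was 1.27 (1.25 to 1.29) for ATP5B and 0.887 (0.864 to 0.910) for ATP5A1, so genes of equal share in the enzyme lay on opposite sides of the control. The log2 ratio of ATP5A1, -0.17, became 0.04 once the trend with GC content was taken out. With YAP siRNA both were above the control, at 0.21 and 0.07. ATP5D, the delta subunit of the central stalk, was at 43.3, 53.6 and 45.9 FPKM and had the highest direct ratio of the complex, 0.22.

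The rotor of the enzyme is a ring of identical c subunits encoded by 3 genes that differ in their import sequence. ATP5G3 (chr2:175176258-175184607) was at 33.7, 53.1 and 52.3 FPKM, with count ratios of 1.57 (1.51 to 1.64) and 1.55 (1.49 to 1.61). ATP5G1 was at 17.4, 19.2 and 20.6 FPKM and ATP5G2 at 65.5, 74.2 and 76.1 FPKM, with count ratios of 1.10 to 1.18 over both comparisons. The share of the c-ring counts on ATP5G3 was thus higher in both knockdown libraries, while ATP5G2 stayed the most abundant. ATP5J, of the peripheral stalk, was at 16.2, 24.2 and 20.9 FPKM, with log2 ratios of 0.55 and 0.35. The 3 membrane subunits ATP5I, ATP5J2 and ATP5L had log2 ratios of 0.33 to 0.37 with IRF3 siRNA and of 0.19 to 0.35 with YAP siRNA. ATP5SL, named after the synthase but not one of its subunits, was at 4.35, 4.64 and 4.42 FPKM, with log2 ratios of 0.07 and 0.02.

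Level and gene length moved with the ratios over all genes. Among all kept genes the median log2 ratio with IRF3 siRNA was -0.13 in the lowest decile of level and 0.15 in the highest, and 0.09 in the shortest decile of exon length and -0.24 in the longest. With YAP siRNA the same medians were -0.10, 0.14, 0.10 and -0.21. The 42 members in the top decile of level had medians of 0.30 and 0.22, beside 0.15 and 0.14 for all genes of that decile. A smooth trend in level and length accounted for 9.51% and 10.3% of the variance of the ratios over all genes, and 22.5% and 18.7% with GC content added. With the trend in level and length taken out, the members' medians were 0.15 and 0.15 and 63 and 65 of 78 were above 0, beside 53.5% and 53.7% of all genes. With GC content added they were 0.20 and 0.18, and 72 and 67 were above 0, beside 51.7% and 52.2% of all genes.

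**Figure D4:**
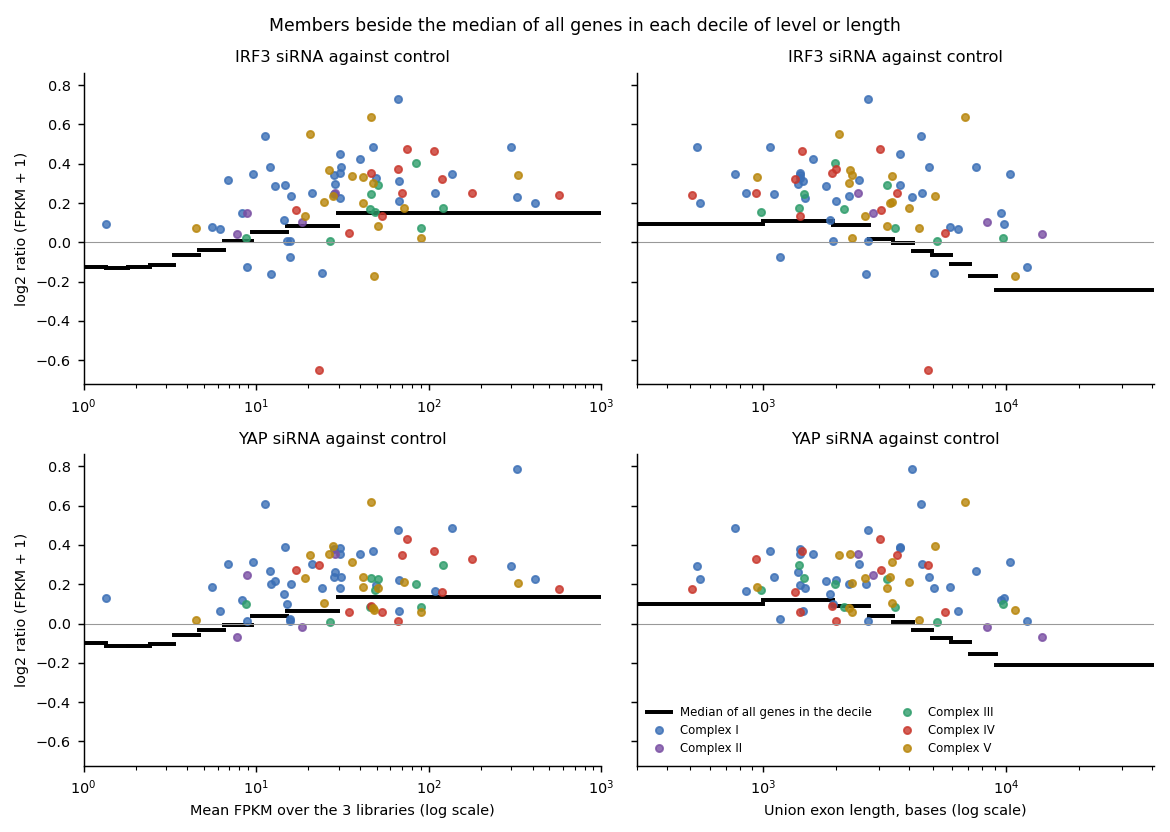
Log2 ratio of each kept member against its mean FPKM (left) and its exon length (right), both on log axes, with IRF3 siRNA above and YAP siRNA below; black segments are medians of all kept genes in each decile, with the outermost segments cut at the axes. The segments climb with level and descend with length, and most members lie above the segment at their own level or length.

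Reads of many members could be divided with similar genes. Of the 85 members, 36 have copies in the table named by their symbol, P and digits, 129 in all, of which 79 had no count in any library. The copies held more than 5% of the summed counts of gene and copies for 6 members in the control library, SDHD (18.8%), NDUFV2 (17%), NDUFA5 (12.3%), COX6A1 (11.8%), UQCRFS1 (11%) and SDHA (6.95%). UQCRHL, a copy of UQCRH that is not so named and was not added, held 20.8% of the summed counts of the pair. Adding the copies left the medians at 0.24 and 0.21. Exon sequence was shared with another counted gene by 44 members, and for 22 of them the partners' counts came to more than 10% of the member's own. With all partners added, the medians were 0.22 and 0.20. Some of these sums mostly read the partners, which came to 519% of the control counts of NDUFS1 and 400% of those of NDUFA7.

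Genes that work around the chain were read from lists chosen by function, and 0 of their kept genes reached 2-fold on log2(FPKM + 1) in any comparison, where 0.297% to 0.612% of all genes did in a given direction. Of 17 kept assembly factors of complex I, 14 were above 0 with IRF3 siRNA and 17 with YAP siRNA, with medians of 0.13 and 0.13. The background above 0, here and for the lists that follow, was 46.1% and 46.5% of all kept genes. NDUFAF4 was at 1.38, 2.77 and 2.52 FPKM, with log2 ratios of 0.66 and 0.56, which the pseudocount lowers at such levels: its count ratio with IRF3 siRNA was 2.01 (1.49 to 2.72), from 67 and 144 counts. NDUFAF3, its partner in early assembly, was at 0.44 and 0.10, TMEM126B at 0.07 and 0.34, and ECSIT at 0.34 and 0.01. The 4 assembly factors of complex II were above 0 in both comparisons, with medians of 0.30 and 0.27. SDHAF2, which attaches the flavin to SDHA, was at 0.46 and 0.20, SDHAF3 at 0.38 and 0.38, SDHAF1 at 0.23 and 0.28, and SDHAF4 at 0.07 and 0.26. Of 6 for complex III, 5 and 4 were above 0, with BCS1L, which inserts the Rieske protein, at 0.27 and 0.39, LYRM7 at 0.26 and -0.05, and UQCC3 at 0.08 and 0.29.

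Complex IV has the longest list of assembly and expression factors, with 24 kept. Of these, 16 and 17 were above 0 (background 46.1% and 46.5%), with medians of 0.12 and 0.13. LRPPRC, which stabilises mitochondrial messenger RNAs, was at 10.3, 5.67 and 5.62 FPKM, low in both knockdown libraries at log2 ratios of -0.76 and -0.77. PET100 was at 0.58 and 0.33, SURF1 at 0.42 and 0.47, SCO2 at 0.43 and 0.17, and COX20 at -0.39 and -0.04. Of the 6 kept genes of the complex V list, ATPAF1, a chaperone of the beta subunit, was at 5.23, 3.08 and 2.96 FPKM, at -0.61 and -0.65. USMG5 was at 0.45 and 0.43, C7orf55 at 0.26 and 0.42, and C14orf2 at -0.23 and 0.10. USMG5 and C14orf2 encode small membrane proteins of the synthase itself, though their symbols fall outside the rule for members. Both LRPPRC and ATPAF1 thus lay past 1.5-fold below the control (background 5.88% and 4.64%) while most subunit genes lay above it. The values of both are given without the trend in level, exon length and GC content taken out.

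Among 17 kept genes of electron carriers and coenzyme Q synthesis, 11 and 12 were above 0 (background 46.1% and 46.5%). Their medians were 0.17 and 0.15. CYCS, the cytochrome c gene, was at 33.9, 36.9 and 42.8 FPKM, at 0.12 and 0.33. PDSS1 and PDSS2, which build the side chain of coenzyme Q, were at -0.29 and -0.42 and at -0.32 and -0.29, while COQ4 was at 0.30 and 0.24. COQ10A was at -0.28 and 0.15, and ADCK4 at 0.25 and -0.11. Of 15 regulators of mitochondrial biogenesis 10 were kept, and these showed no shared direction. In each comparison 5 of the 10 were above 0 (background 46.1% and 46.5%), with medians of 0.03 and -0.01. Below the filter, PPARGC1B had 264, 133 and 90 counts, at count ratios of 0.470 (0.379 to 0.581) and 0.331 (0.257 to 0.421). Count ratios were 0.657 and 0.703 for GABPB2 and 0.911 and 0.875 for MTERF1. They were 1.32 and 1.29 for TEFM, and 0.533 and 1.25 for PPARGC1A (7, 4 and 9 counts). Of those kept, TFAM was at log2 ratios of -0.31 and -0.27. YY1 was at 13.6, 9.89 and 9.25 FPKM, at -0.42 and -0.51. ESRRA was at 17.8, 22.9 and 22.7 FPKM, at 0.34 and 0.33, PPRC1 at 0.07 and -0.36, and POLRMT at 0.30 and 0.14.

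Most of the partner subunits encoded in mitochondrial DNA that could be counted lay on the other side of the control. Of these 13 genes 8 were kept. With IRF3 siRNA 2 of the 8 were above 0 and with YAP siRNA 0 (background 46.1% and 46.5%). Their medians were -0.32 and -0.50, beside 0.24 and 0.21 for the nuclear members. The 2 above 0 with IRF3 siRNA were MT-ND3 at 0.08 and MT-ND1 at 0.24. The count ratio of MT-ND1 was 1.20 (0.965 to 1.49), an interval that includes 1. Of the 5 not kept, 2 had 0 counts in every library, 2 had 1, 0 and 0 and 1 had 9, 0 and 0. Every cell uses these genes, so the medians cover only the part of the list that this table counted. Among the 8 kept, control counts ran from 151 for MT-ND1 and 625 for MT-CO2 to 157695 for MT-CO1. How evenly reads of these genes were counted was not tested.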

How the data were processed

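RNA sequencing of 3 libraries was analysed. Reads were aligned with TopHat2 2.0.9 to hg38, per the submitters' processing notes, and no gene counter, annotation release or strand setting is given in the sources used here. For each library the authors deposited raw counts and FPKM per gene, per the file headers. The gene length behind the authors' FPKM equals the sum of all distinct annotated exons (GENCODE 29) within 0.1% for 7519 of 8746 genes with at least 200 control counts (86.0%), so FPKM understates genes with many transcripts. Exon length, overlaps and GC content came from GENCODE 29, and coordinates were identical for 93.8% of kept genes.

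Log2 ratios were taken of FPKM plus a pseudocount of 1, which understates changes of low genes, for genes with a mean of at least 1 FPKM. A call needed 2-fold. Ratios of counts carry exact Clopper-Pearson 95% intervals. Alternatives were a filter of 5 FPKM or none, a pseudocount of 0.1, 1.5-fold and 3-fold calls, centring, TMM (edgeR 4.0.16), trends removed by splines with 4 degrees of freedom, and copies added. Adding overlapping genes and union RPKM were chosen after seeing the data. The ratio script was tested on simulated data. Tools were Python 3.11.15, pandas 2.3.3 and scipy 1.17.1.

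The members and gene lists were chosen with earlier results of these data known. Named by rule were the gene of highest control FPKM per complex, those with the largest and smallest ratio per complex and comparison, genes under the filter, and the 2 largest absolute ratios per pathway list and comparison. Other members named were chosen for their role or after their values were seen. Of the mitochondrial genome and marker lists mainly counts, sums and medians are given. The values of 1 member are not reported here, though it enters the counts and medians.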

Additional observations from a re-analysis of the deposited data

How the results depend on the processing

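No paired analysis was possible because each group has 1 library, which also leaves no replicate to omit. Lowering the call to 1.5-fold gave 2 members higher and 1 lower with IRF3 siRNA, 3 higher with YAP siRNA and 1 lower in the direct comparison, in place of 0 in each. The median of the members with IRF3 siRNA was 0.35 under TMM and 0.15 with the trend in level and length removed, against 0.24, and that with YAP siRNA was 0.31 under TMM, against 0.21. The cause was not tested. Among the other 125 alternative values of the counts and medians, no median changed sign. The widest moves came with the trends removed. There, members above 0 went from 72 to 63 with IRF3 siRNA and from 76 to 65 with YAP siRNA, the YAP siRNA median from 0.21 to 0.15 and the direct median from 0.01 to 0.04. Among 597 alternative values of the 20 members given in full, 27 changed sign. With IRF3 siRNA these include NDUFS5 (-0.01 with the trend in level and length removed) and NDUFS1 (0.20 with that in GC content added). With YAP siRNA they include ATP5D (-0.12), CYC1 (-0.02) and COX7C (-0.06) with GC content added to the trend. With at least 13949401 counts a library, counting error is small for most members, and differences between cultures could not be measured.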
